A study of Mus musculus with 6 samples.

Results

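The genes described here are 34 genes of neuroblast differentiation and migration, taken by name from the 32564 genes to which the deposited transcripts were assigned, and all 34 were found in the data. Neuroblasts are the immature neurons that adult neural stem cells of the subependymal zone, the stem cell layer beside the lateral ventricles, give rise to through dividing progenitors. They migrate in chains to the olfactory bulb and mature there, mostly into GABAergic interneurons. On this path a cell builds neuronal tubulins and growth cone proteins, reads guidance cues through surface receptors, and switches on neuronal RNA-binding proteins and transcription factors.

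The libraries were made from cells labelled as quiescent neural stem cells (qNSCs), which had been sorted by flow cytometry from the subependymal zone. The donors were gfap:GFP mice, aged 3 months, of the strain given as C56BL/6J. All animals carried the gfap:GFP transgene, in which the promoter of the glial gene Gfap drives a green fluorescent protein. The vehicle group (3 libraries) received artificial cerebrospinal fluid (aCSF) into the ventricles, and the antagomir group (3 libraries) received antagomirs specific to miR-204, which are oligonucleotides that bind a microRNA and block it. The cells were isolated 3 days later. The series' title concerns miR-204 from the choroid plexus and the number of neural stem cells, and the comparison here asks how levels of neuroblast transcripts compared between antagomir and vehicle. Because the protocol text of every sample mentions the antagomir, vehicle samples included, groups follow the separate treatment group label. No control oligonucleotide is named, so the injection of an oligonucleotide and the block of miR-204 cannot be told apart. The labels do not say whether a library came from 1 animal or from several, so each p-value reflects spread among libraries that may be partly or wholly technical.

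Libraries held 14866453 to 19694409 estimated counts. Levels are given in CPM (a count scaled to library size, with edgeR's TMM factors) for comparisons between libraries and in TPM (scaled to library size and also divided by transcript length) for comparisons between genes. The floor of 3 counts came to 0.153 to 0.203 CPM and, like any counting interval, covers counting error only. The labelled cells were checked by 14 quiescent stem cell and astrocyte markers, which summed to 17529.5 to 18602 CPM with vehicle and 13550.5 to 17483 CPM with antagomir, among them Clu and Gja1. Markers of other cells were present too. Of the oligodendrocyte markers, 9 are reported, among them Mbp and Cnp, and they summed to 4729, 9233 and 7086 CPM with vehicle and 7771, 9963 and 9542 CPM with antagomir. All 9 had positive fold changes (median log2 0.30, 0 past the test), and their sum was lowest in vehicle replicate 1. No marker of these lists was at 0 in all libraries, and the part of oligodendrocytes in the neuroblast values was not tested.

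The microRNA that the antagomir was directed against is shown first because its seed, bases 2 to 8, is the part that chiefly pairs with target messages. The mature mouse miR-204-5p sequence from RefSeq (GRCm38.p6, chr19:22750610-22750631, plus strand) is printed 5′ to 3′ with the seed in capitals.
miR-204-5p: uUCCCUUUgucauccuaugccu
The 3′ UTR of each gene's most abundant protein-coding transcript (GENCODE M21, GRCm38) was searched on the transcript strand for the letters AAAGGGA, which pair with bases 2 to 8. A match followed by A is called an 8mer and any other a 7mer-m8. Of the 34 genes, 5 had a match (14.7%), against 1929 of the 14186 tested genes with a searched 3′ UTR (13.6%). The median 3′ UTR was 1253 bases long for the 34 genes and 887 bases for the tested genes. The 5 matches are printed in 23-base windows, 5′ to 3′, with the match and the A of an 8mer in capitals.
Elavl3 (8mer, chr9:22017858-22017880, minus strand): ctctatttttgtaaAAAGGGAAa
Nrxn3 (8mer, chr12:90333391-90333413, plus strand): ctaagggaaggaaaAAAGGGAAa
Ina (7mer-m8, chr19:47024417-47024439, plus strand): aataaataaacataAAAGGGAtc
Robo2 (7mer-m8, chr16:73894411-73894433, minus strand): ggaaagaacagtcaAAAGGGAga
Dscam (7mer-m8, chr16:96590875-96590897, minus strand): acactactgtctccAAAGGGAtg
In Bcl11b and Dpysl3 a match lay only in a less abundant transcript, and in Map1b only in an annotated transcript for which no level was measured here. Some searched 3′ UTRs were short, with 44 bases for Dpysl3 and 36 for Rbfox3. For Dscam the searched transcript, with 8707 31-base words, was longer than the deposited one of 7498 bases. Whether the measured Dscam transcript held the match is therefore not known. A match is a description of letters and not evidence of binding. The share of neuroblast genes with a match lay close to the share over all tested genes.

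In the comparison of antagomir with vehicle, all 33 neuroblast genes that passed the filter on low counts had a positive log2 fold change, but 0 of the 33 passed edgeR's quasi-likelihood test after Benjamini-Hochberg adjustment (threshold 0.05, smallest adjusted p = 0.949). Over all 15012 genes tested 0 passed (0%), and 49.1% had a positive fold change. At an unadjusted p under 0.05 there was 1 neuroblast gene, Insm1, on the higher side (3.03% of 33, against 2.18% of all tested genes) and 0 on the lower side (against 1.93%). DESeq2 called 0 of the 33, with 2 at an unadjusted p under 0.05 (5.2% of all tested genes in either direction), and limma on log2(TPM + 1) called 0, with 1 (4.93% of all tested genes). The log2 fold changes ran from 0.00 for Cd24a to 1.52 for Igfbpl1 with a median of 0.59, where the median over all tested genes was -0.01. The remaining gene, Neurod1, had too few counts to be tested.

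The groups overlapped for 32 of the 33 genes. The exception was Elavl3, whose antagomir libraries all lay above the vehicle libraries (3.03% of the 33, where 5.07% of all tested genes did so), and for 0 genes did they all lie below (5.45% of all tested genes). Most of the 33 genes shared the order of their highest libraries. Antagomir replicate 1 was the highest library for 29 of 33 genes (87.9%, against 23.5% of all tested genes). In 28 genes (84.8%, against 9.11% of all tested genes) antagomir replicate 1 was highest and vehicle replicate 1 second. The exceptions were Cd24a, Robo1, Dscam, Elavl3 and Insm1. Vehicle replicate 3 was the lowest library for 25 genes, vehicle replicate 2 for 6, and antagomir replicates 2 and 3 for 1 each. Over all 15012 tested genes these libraries were lowest for 3119, 2051, 2170 and 1556 genes, in that order. Summed over the 34 genes, the levels were 5281, 2639 and 2399 CPM in vehicle replicates 1, 2 and 3 and 7577, 3448 and 3425 CPM in antagomir replicates 1, 2 and 3. In bulk libraries such as these, numbers of neuroblasts, levels of these RNAs per neuroblast and these RNAs from other cells cannot be told apart.

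**Figure D1:**
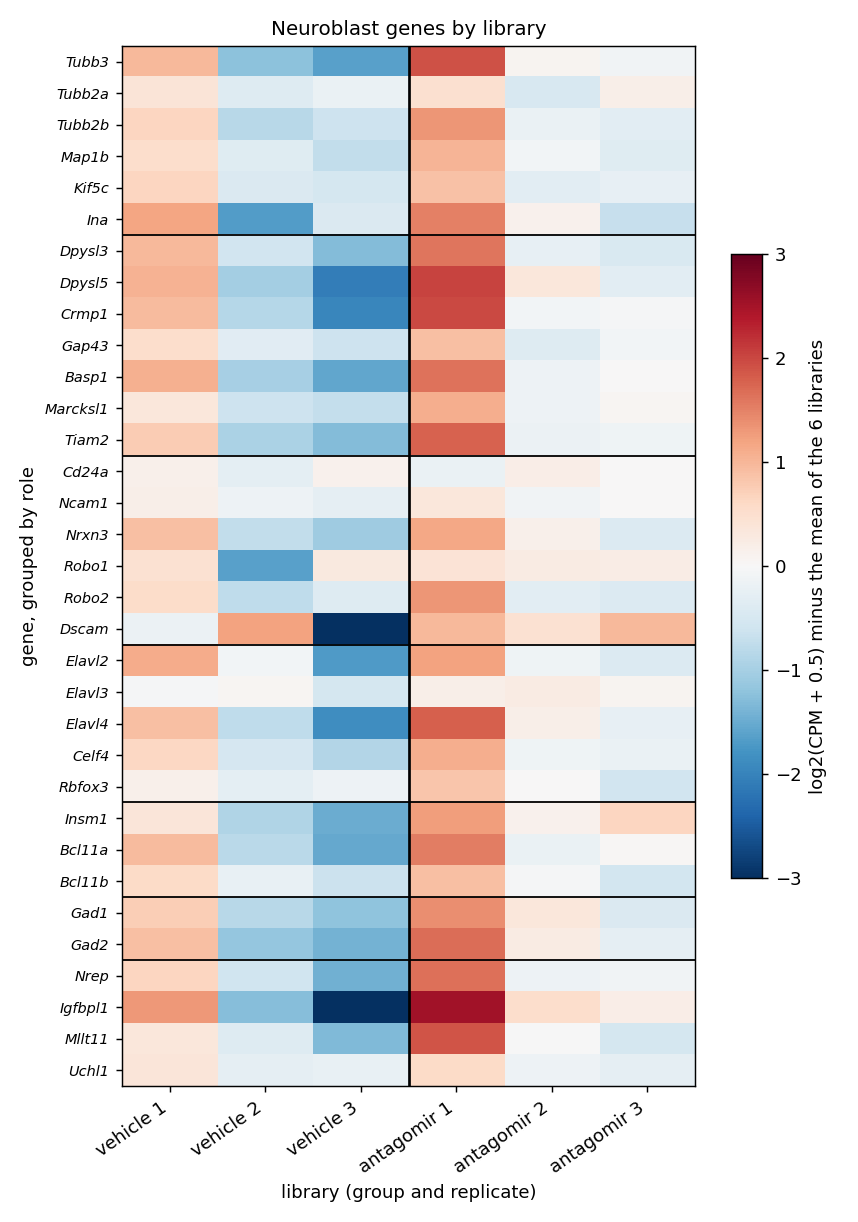
Heat map of the 33 tested neuroblast genes (rows, grouped by role) in the 6 libraries (columns), coloured by log2(CPM + 0.5) minus the gene's mean over the libraries (colours end at 3 in either direction). Antagomir 1 and vehicle 1 are red for most genes and vehicle 2 and vehicle 3 blue, while Cd24a, Ncam1 and Elavl3 stay pale across the row.

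For most of the 33 genes, replicate 1 differed from the other libraries of its group by more than the groups differed. Elavl3 was among the exceptions. Antagomir replicate 1 exceeded the mean of antagomir replicates 2 and 3 by a median of 2.61-fold over the 33 genes (from 0.801-fold for Cd24a to 4.51-fold for Igfbpl1), and 25 of the 33 were over 2-fold, against 5.03% of all tested genes. Vehicle replicate 1 exceeded the mean of vehicle replicates 2 and 3 by a median of 2.59-fold (from 0.723-fold for Dscam to 10.99-fold for Igfbpl1), and 24 of the 33 were over 2-fold, against 9.04% of all tested genes. Vehicle replicate 1 lay above both antagomir replicates 2 and 3 in 29 genes, a pattern that was not counted over all tested genes.

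Leaving out antagomir replicate 1 removed the common direction. The number of genes with a positive fold change was then 18 of 33, their median log2 fold change was 0.03, and 15 genes turned negative. Without vehicle replicate 1 the median was 1.22 and 33 of 33 were positive, 18 of them at an unadjusted p under 0.05 (7.37% of all genes then tested). Leaving out vehicle replicate 2 gave a median of 0.37 with 29 of 33 positive, and leaving out vehicle replicate 3 a median of 0.37 with 32 of 33 positive. Without both replicates numbered 1, which leaves 2 against 2, the median was 0.55 and 32 of 33 were positive, the exception being Rbfox3. In that comparison 16 genes lay at an unadjusted p under 0.05 (7.35% of all genes then tested) and 0 passed after adjustment, the smallest adjusted p in edgeR's test being 0.0836, for Tubb3. In 20 of the 33 genes antagomir replicates 2 and 3 both lay above vehicle replicates 2 and 3, against 20.1% of all tested genes. The size of the difference, and without antagomir replicate 1 the direction for 15 genes, thus differed with the libraries compared, and none of these comparisons called a neuroblast gene.

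**Figure D2:**
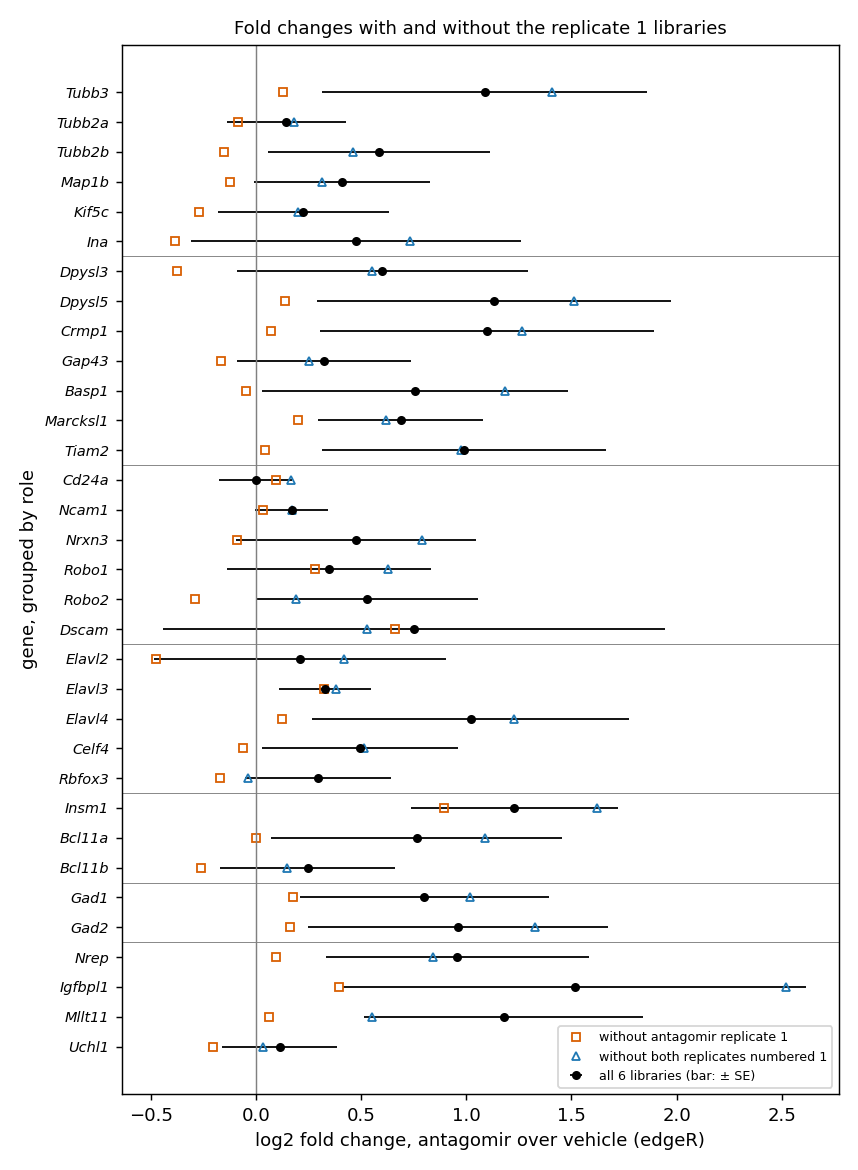
Log2 fold change of antagomir over vehicle for the 33 tested neuroblast genes from edgeR, with all 6 libraries (black circles, bars ± SE), without antagomir replicate 1 (orange squares) and without both replicates numbered 1 (blue triangles). All black circles lie at or right of 0, from 0.00 to 1.52, whereas 15 of the orange squares lie left of it.

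Of the microtubule and neurofilament genes, 6 of 6 had positive fold changes (median 0.44) and 0 passed the test. Tubb3, the beta-tubulin used as a marker of young neurons (ENSMUSG00000062380.4, chromosome 8, 123411424 to 123422015, plus strand in GRCm38), measured 199, 42.7 and 32.5 CPM in vehicle replicates 1, 2 and 3 and 382, 107 and 93.5 CPM in antagomir replicates 1, 2 and 3. Antagomir replicate 1 held more Tubb3 than antagomir replicates 2 and 3 together, vehicle replicate 1 lay above both of those, and vehicle replicates 2 and 3 were lowest, so the groups overlapped. The log2 fold change was 1.09 ± 0.77 (SE) with all libraries and 0.13 without antagomir replicate 1. Tubb2b, a beta-tubulin of developing neurons, measured 137, 48.7 and 57.1 CPM with vehicle and 219, 76.5 and 69.7 CPM with antagomir, again highest in both replicates numbered 1, with a fold change of 0.59 ± 0.53 that became -0.15 without antagomir replicate 1. Tubb2a, the most abundant of these genes at a mean of 325 TPM, varied less, with 356, 206 and 238 CPM with vehicle and 380.4, 195 and 308 CPM with antagomir. The coding sequences of Tubb2a and Tubb2b were 96.5% identical over 1338 bases, and 51.1% of the 31-base words of the Tubb2a transcript also occurred in another gene, chiefly Tubb2b. The division of counts between them is therefore uncertain, which for Tubb3 (3.26% shared words) is much less of a limit.

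Map1b, which binds and stabilises microtubules in growing axons, measured 392, 214 and 164 CPM with vehicle and 550.3, 259 and 213 CPM with antagomir, and Kif5c, a neuronal kinesin motor, measured 354, 169.8 and 157 CPM with vehicle and 420.0, 184 and 192 CPM with antagomir. Both were highest in antagomir replicate 1 and second highest in vehicle replicate 1, and without antagomir replicate 1 their log2 fold changes were -0.12 and -0.27. Ina, the neurofilament protein alpha-internexin and a carrier of a miR-204-5p seed match, measured 29.3, 3.61 and 9.29 CPM with vehicle and 37.2, 13.99 and 7.66 CPM with antagomir. Its lowest value was in vehicle replicate 2, and antagomir replicate 3 lay below vehicle replicate 3.

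All 7 growth cone genes were highest in antagomir replicate 1 and second highest in vehicle replicate 1, with 7 of 7 positive (median log2 fold change 0.76) and 0 past the test. Marcksl1, a membrane protein that binds actin and calmodulin, was the most abundant at a mean of 353 TPM and measured 355, 181 and 171 CPM in vehicle replicates 1, 2 and 3 and 598, 250.1 and 291 CPM in antagomir replicates 1, 2 and 3. The other antagomir libraries lay between vehicle replicates 2 and 3 on the lower side and vehicle replicate 1 on the higher side, and the log2 fold change was 0.69 ± 0.39 (SE), or 0.20 without antagomir replicate 1. Tiam2, an exchange factor that activates the small GTPase Rac, measured 232, 69.6 and 54.9 CPM with vehicle and 462, 121 and 124 CPM with antagomir. Its log2 fold change was 0.99 ± 0.68 with all libraries, 0.04 without antagomir replicate 1 and 0.98 without both replicates numbered 1.

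Crmp1, Dpysl3 and Dpysl5 encode collapsin response mediator proteins, which carry semaphorin and other guidance signals to the cytoskeleton. Crmp1 measured 178, 50.1 and 23.1 CPM with vehicle and 361, 86.8 and 89.2 CPM with antagomir, and Dpysl5 measured 133, 31.1 and 14.8 CPM with vehicle and 261, 80.4 and 51.04 CPM with antagomir. From the lowest to the highest library these 2 genes spanned 15.6-fold and 17.6-fold, compared with 1.95-fold for Tubb2a. Dpysl3 measured 174, 58.8 and 35.7 CPM with vehicle and 269, 74.2 and 64.4 CPM with antagomir, and its log2 fold change went from 0.60 to -0.37 without antagomir replicate 1. Basp1 and Gap43 are related membrane-bound proteins of the growth cone that are phosphorylated or bound in calcium signalling. Basp1 measured 205, 48.7 and 32.5 CPM with vehicle and 298, 86.4 and 98.1 CPM with antagomir, and Gap43 measured 40.9, 22.3 and 18.2 CPM with vehicle and 53.6, 21.7 and 26.7 CPM with antagomir, with less difference between libraries.

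The adhesion and guidance receptors held 3 of the 5 exceptions to the library order, with 6 of 6 positive, a median log2 fold change of 0.41 and 0 past the test. Ncam1, the neural cell adhesion molecule and the most abundant of the 34 genes at a mean of 387 TPM, measured 790.1, 633 and 579 CPM in vehicle replicates 1, 2 and 3 and 886, 656 and 712 CPM in antagomir replicates 1, 2 and 3. Its highest and lowest libraries differed 1.53-fold, and its log2 fold change was 0.17 ± 0.17 (SE). Cd24a, a small glycolipid-anchored surface protein used to sort neuroblasts and also carried by ependymal cells, measured 362, 267 and 359 CPM with vehicle and 283, 377 and 329 CPM with antagomir. Here vehicle replicate 2 was lowest and antagomir replicate 1 next, antagomir replicate 2 was highest, and the log2 fold change was 0.00 ± 0.17. Ependymal markers, among them Foxj1 and Rsph1, were lowest in antagomir replicate 1, at 1188 CPM summed over 8 genes against 1720.5 to 2235 CPM in the others. Their part in the Cd24a values was not tested.

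Robo1 and Robo2 are receptors for Slit proteins, repellents that steer migrating neuroblasts. Robo2, which carries a 7mer-m8 match, measured 55.9, 22.1 and 28.8 CPM with vehicle and 95.7, 30.1 and 28.3 CPM with antagomir. Antagomir replicate 1 was highest and vehicle replicate 1 second, antagomir replicates 2 and 3 lay close to vehicle replicates 2 and 3, and the log2 fold change of 0.53 ± 0.53 became -0.29 without antagomir replicate 1. Robo1 measured 23.4, 5.08 and 20.6 CPM with vehicle and 22.6, 20.2 and 19.68 CPM with antagomir, so that vehicle replicate 2 was low and the other 5 libraries were alike. Nrxn3, a presynaptic adhesion protein whose 3′ UTR holds an 8mer, measured 148, 46.97 and 37.2 CPM with vehicle and 177, 87.3 and 58.7 CPM with antagomir, with both replicates numbered 1 highest. Dscam, a homophilic adhesion receptor with a 7mer-m8 match, was scarce and measured 4.33, 11.99 and 0 CPM with vehicle and 10.2, 7.03 and 10.2 CPM with antagomir, with no count in vehicle replicate 3, where the floor is 0.153 CPM.

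**Figure D3:**
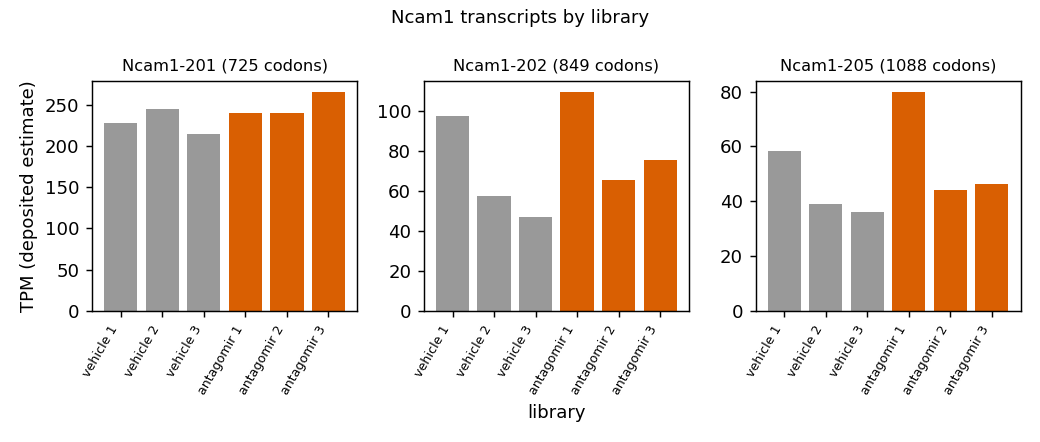
Deposited TPM estimates of the 3 most abundant Ncam1 transcripts in each library (grey bars vehicle, orange bars antagomir, axes from 0 with their own scales). Ncam1-201 lies between 215 and 266 TPM in every library, whereas Ncam1-202 and Ncam1-205 are highest in antagomir 1 and vehicle 1.

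Ncam1 transcripts differed in their spread over the libraries (singled out after their values were seen). As background, Ncam1 makes a glycolipid-anchored form, abundant in glia, and longer transmembrane forms, which neurons carry. Ncam1-201, with 725 codons, made up 61.8% of the gene's TPM and measured 228, 245 and 215 TPM with vehicle and 239.9, 239.6 and 266 TPM with antagomir, a span of 1.24-fold with no library apart. Ncam1-202, with 849 codons, measured 97.5, 57.7 and 47.3 TPM with vehicle and 109.8, 65.8 and 75.5 TPM with antagomir. Ncam1-205, with 1088 codons, measured 58.5, 39.2 and 35.9 TPM with vehicle and 79.9, 44.01 and 46.5 TPM with antagomir. The longer transcripts spanned 2.32-fold and 2.22-fold and had the library order seen for Tubb3, with antagomir replicate 1 first and vehicle replicate 1 second. Shares of transcripts of 1 gene are model estimates, and the difference between transcripts was not tested.

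Of the RNA-binding protein genes 5 of 5 were positive (median log2 fold change 0.33) and 0 passed the test. Elavl2, Elavl3 and Elavl4 encode neuronal Hu proteins, which stabilise messages and regulate splicing. Elavl3, with an 8mer match in its 3′ UTR (ENSMUSG00000003410.8, chromosome 9, 22015005 to 22052023, minus strand), measured 25.1, 26.8 and 17.8 CPM in vehicle replicates 1, 2 and 3 and 29.4, 30.9 and 27.3 CPM in antagomir replicates 1, 2 and 3. Its lowest antagomir library, replicate 3, lay just above its highest vehicle library, replicate 2, and the log2 fold change of 0.33 ± 0.22 (SE) was 0.32 without antagomir replicate 1. Its unadjusted p was 0.166 and its adjusted p 0.949 in edgeR's test.

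Elavl4 measured 48.9, 15.2 and 6.80 CPM with vehicle and 92.3, 29.7 and 21.9 CPM with antagomir, a pattern like that of Tubb3, and its log2 fold change was 1.02 ± 0.75 with all libraries and 0.12 without antagomir replicate 1. Elavl2 measured 41.6, 17.9 and 5.43 CPM with vehicle and 43.98, 17.2 and 13.95 CPM with antagomir, with vehicle replicate 1 close to antagomir replicate 1. Celf4, a splicing and translation regulator and the most abundant of these genes at a mean of 75.2 TPM, measured 238, 108 and 83.7 CPM with vehicle and 331, 141 and 135 CPM with antagomir. Rbfox3, which encodes the neuronal nuclear antigen NeuN of maturing neurons, measured 32.3, 23.8 and 26.2 CPM with vehicle and 52.1, 29.5 and 19.4 CPM with antagomir. The lowest Rbfox3 library was antagomir replicate 3, and the gene's log2 fold change was 0.30 with all libraries and -0.17 without antagomir replicate 1.

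Of the 4 transcription factors, Neurod1, a basic helix-loop-helix factor prominent in glutamatergic lineages, had 1 count in vehicle replicate 3, 1 in antagomir replicate 3 and 0 elsewhere, all under the floor of 3 counts. The other 3 were positive and 0 passed the test. Insm1, a zinc finger factor of newly committed progenitors (ENSMUSG00000068154.5, chromosome 2, 146221921 to 146225020, plus strand), measured 40.95, 16.6 and 10.9 CPM in vehicle replicates 1, 2 and 3 and 75.7, 34.7 and 50.02 CPM in antagomir replicates 1, 2 and 3. All antagomir libraries lay above vehicle replicates 2 and 3, and antagomir replicates 1 and 3 also lay above vehicle replicate 1. Its log2 fold change of 1.23 ± 0.49 (SE) had the smallest unadjusted p of the 34 genes, 0.0368 (adjusted p 0.949 in edgeR's test), and stayed at 0.89 without antagomir replicate 1.

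Bcl11a and Bcl11b encode zinc finger factors of neuronal identity, the second being prominent in striatal and deep cortical neurons. Bcl11a measured 59.3, 17.00 and 10.1 CPM with vehicle and 89.1, 26.4 and 31.2 CPM with antagomir, and without antagomir replicate 1 its log2 fold change went from 0.76 ± 0.69 to 0.00. Bcl11b, at a mean of 31.9 TPM the most abundant factor, measured 94.8, 54.7 and 40.6 CPM with vehicle and 119, 62.7 and 43.3 CPM with antagomir. Antagomir replicate 3 lay below vehicle replicate 2 for Bcl11b, and the fold change of 0.25 became -0.26 without antagomir replicate 1.

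Gad1 and Gad2 encode the enzymes that make GABA, the transmitter of most olfactory bulb interneurons, and both had positive fold changes with 0 past the test. Gad1 measured 73.9, 24.6 and 18.99 CPM with vehicle and 116, 56.4 and 32.4 CPM with antagomir, and Gad2 measured 58.9, 13.7 and 11.2 CPM with vehicle and 100.5, 36.8 and 25.9 CPM with antagomir. In both genes the libraries ran from antagomir replicate 1 through vehicle replicate 1, antagomir replicate 2 and antagomir replicate 3 down to vehicle replicates 2 and 3. The log2 fold changes were 0.80 ± 0.59 and 0.96 ± 0.71 (SE), and 0.18 and 0.16 without antagomir replicate 1.

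The remaining 4 genes were positive (median log2 fold change 1.07) and 0 passed the test. Nrep, a small neuronal protein first linked to regeneration, measured 231, 97.7 and 54.3 CPM in vehicle replicates 1, 2 and 3 and 471, 134 and 139 CPM in antagomir replicates 1, 2 and 3. Mllt11, a small protein of differentiating neurons, measured 31.95, 19.1 and 9.80 CPM with vehicle and 95.2, 25.03 and 17.4 CPM with antagomir, and antagomir replicate 1 alone stood apart. The log2 fold changes were 0.96 ± 0.62 for Nrep and 1.18 ± 0.66 for Mllt11 (SE), and without antagomir replicate 1 they were 0.10 and 0.06.

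Igfbpl1, a secreted protein related to the insulin-like growth factor binding proteins and concentrated in young neurons, had the widest range of the 32 genes with a ratio of highest to lowest library (Dscam and Neurod1 had libraries at 0), with 31.6, 4.89 and 0.863 CPM with vehicle and 74.03, 18.4 and 14.4 CPM with antagomir. The highest and lowest libraries differed 85.8-fold, and the log2 fold change was 1.52 ± 1.10 (SE), or 0.40 without antagomir replicate 1. Uchl1, a deubiquitinating enzyme of neurons, measured 105, 67.2 and 69.3 CPM with vehicle and 121, 72.8 and 67.4 CPM with antagomir, so that both replicates numbered 1 lay above the other 4 libraries, which were alike.

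Most other neuroblast genes were highest in the same library, while their second highest library was not counted. Of 25 other neuroblast genes, all tested, 22 had positive fold changes, the median was 0.57 and 0 passed the test. Of the 25, only Stmn4, a stathmin that binds tubulin, had groups without overlap, on the higher side, against 5.07% of all tested genes. Stmn4 measured 196, 262 and 182 CPM with vehicle and 275, 272 and 265 CPM with antagomir. Stmn1, another stathmin, measured 682, 517 and 345 CPM with vehicle and 1182, 712 and 665 CPM with antagomir, and Sp8, a transcription factor of olfactory interneurons, measured 8.66, 1.35 and 1.12 CPM with vehicle and 27.3, 8.63 and 6.58 CPM with antagomir. Antagomir replicate 1 was the highest library for 23 of the 25, and without it the median was 0.07. Leaving out vehicle replicate 1 gave 1.23, and leaving out vehicle replicate 3 gave 0.28.

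Of 23 ligands, receptors and adaptors of neuroblast migration, 22 were tested, 13 had positive and 9 negative fold changes, the median was 0.15 and 0 passed the test. Antagomir replicate 1 was highest for 7 of the 23. On the higher side the groups did not overlap only for Lrp8, against 5.07% of all tested genes. On the lower side they did not overlap only for Srgap3, a partner of Robo receptors, against 5.45% of all tested genes. Lrp8, a Reelin receptor, measured 169, 102 and 123 CPM with vehicle and 225, 176 and 171 CPM with antagomir, with a log2 fold change of 0.54 ± 0.21 (SE) and an unadjusted p of 0.0352 (adjusted p 0.949 in edgeR's test). Nrg3, an ErbB4 ligand, was scarce and measured 0.563, 0.673 and 0.152 CPM with vehicle and 3.71, 2.88 and 0.0567 CPM with antagomir. Slit3, a ligand of the Robo receptors, was scarce too and measured 4.39, 0.612 and 0.152 CPM with vehicle and 0.0608, 0.602 and 0.397 CPM with antagomir. Nrg3 in antagomir replicate 3 and Slit3 in antagomir replicate 1 had 1 count, under the floor of 3. Both genes had 3 counts in vehicle replicate 3, at the floor. The median of this list was 0.05 without antagomir replicate 1 and 0.0027 without vehicle replicate 3.

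Summed markers of other neurons were highest in the same library as the neuroblast genes. The 15 mature neuron markers, among them Camk2a and Snap25, summed to 506, 364 and 361 CPM with vehicle and 684, 445 and 364 CPM with antagomir, and 9 of the 15 were highest in antagomir replicate 1. The 9 striatal neuron markers, among them Ppp1r1b and Pde10a, summed to 626, 520.4 and 501 CPM with vehicle and 801, 496 and 519 CPM with antagomir, with 6 of 9 highest in antagomir replicate 1. Of the 14 mature neuron markers tested, 10 had positive and 4 negative fold changes (median log2 0.24, 0 past the test). The 9 striatal markers were divided, with 5 positive and 4 negative (median log2 0.09, 0 past the test). Ppp1r1b made up most of the striatal sums, with 399, 378 and 366 CPM with vehicle and 567, 343 and 391 CPM with antagomir. Neither list had a marker at 0 in every library. In both sums vehicle replicate 1 was second, and the part of these neurons in the neuroblast values was not tested.

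The 11 markers of activated stem cells and progenitors, among them Top2a and Pcna, summed to 604, 237 and 280.1 CPM with vehicle and 599, 472 and 553 CPM with antagomir. They were low in vehicle replicates 2 and 3, as the neuroblast genes were, but antagomir replicate 1 did not stand above vehicle replicate 1. Of these 11 markers 9 had positive fold changes, with a median log2 of 0.63, and 0 passed the test. A positive median was therefore not particular to the neuroblast genes. Other marker lists had negative medians, with 0 past the test in each. These were -0.13 for quiescent stem cell and astrocyte markers (11 of 14 negative) and -0.23 for ependymal markers (8 of 8 negative). Microglia and macrophage markers had -2.18 (10 of 10 negative), endothelial and pericyte markers -0.20 and choroid plexus markers -0.04. The 10 oligodendrocyte precursor markers, among them Sox10 and Olig2, summed to 330.3, 421 and 329 CPM with vehicle and 403, 464 and 578 CPM with antagomir. The order of these sums differed from that of the neuroblast genes, while 9 of the 10 had positive fold changes (median log2 0.75, 0 past the test). Sox10 and Olig2, the most abundant, were lowest in vehicle replicate 1. Pdgfra, Cspg4, Gpr17, Lhfpl3, Neu4 and C1ql1 were lowest in vehicle replicate 3, Vcan in vehicle replicate 2 and Tnr in antagomir replicate 1. Microglia and macrophage markers, among them Csf1r and Ctss, summed to 1974, 237 and 134 CPM with vehicle and 102, 164 and 269 CPM with antagomir, so vehicle replicate 1 stood apart in these markers as well. The part of these cells in the neuroblast values was not tested. Endothelial and pericyte markers, among them Pdgfrb and Pecam1, summed to 118 to 134 CPM with vehicle and 89.8 to 145 CPM with antagomir, and choroid plexus markers, among them Clic6 and Folr1, to 87.6 to 114 CPM with vehicle and 60.7 to 137 CPM with antagomir.

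**Figure D4:**
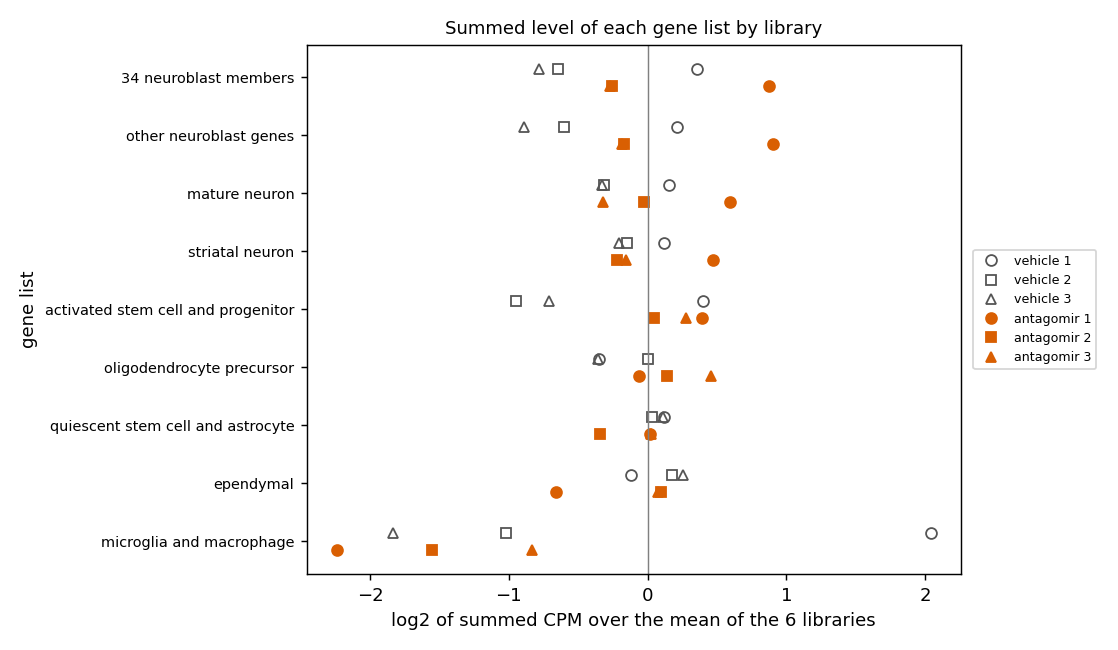
Summed CPM of each gene list in each library as log2 of its ratio to the mean of the 6 libraries (open grey symbols vehicle, filled orange symbols antagomir, symbol shape the replicate number). For the neuroblast, mature neuron and striatal neuron lists antagomir 1 lies farthest right and vehicle 1 next, while for microglia vehicle 1 lies far to the right of the rest.

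The promoters, taken as the RefSeq window of 250 bases before to 50 bases after the start (GRCm38.p6), were searched on both strands for E-box letters, the kind of site that proneural factors of the neuroblast lineage bind. Promoters were found for 25 of the 34 genes. CAGCTG occurred in 5 of the 25 (20%, against 18.3% of 27025 genes), CAGATG in 4 (16%, against 19.2%) and CAGGTG in 9 (36%, against 22.6%). These are descriptions of letters in this window, and shares over 25 genes are imprecise.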

How the data were processed

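RNA of sorted cells was made into cDNA with a low-input kit and sequenced as 100 bp paired-end reads, per the labels' protocols. kallisto, sleuth and the build mm10 are listed in the submitters' processing notes; tool versions are not given in the sources used here. Per the file headers, the authors deposited estimated counts for each transcript, without normalization, and the deposited TPM values divide them by effective length, per the file headers. Of 99567 transcripts, 98294 (98.7%) matched GENCODE M21 (GRCm38) by identifier, 92612 of them with the same version. The unmatched transcripts held 0.524 to 0.586% of the counts in a library and were not used. Counts were summed per gene and rounded.

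edgeR 4.0.16 in R 4.3.3 was run on all genes (TMM factors, filterByExpr with a minimum count of 10, robust quasi-likelihood fit, group only), and adjusted p-values cover 15012 genes. The common biological coefficient of variation was 36.2%. The fit was tested on simulated counts, with a pass condition only at a spread between libraries below that of these data. That test does not show which changes could be called here. No pair of libraries agreed within sampling noise (chi-square per gene at least 23.7). Alternatives were DESeq2 1.42.0, limma 3.58.1 on log2(TPM + 1) with a pseudocount of 1, other scaling, filters and counts, a replicate block, and libraries left out.

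The 34 genes and all lists were chosen with earlier results of these data known, so no list was tested, and each is given by counts and medians beside those of all tested genes. All 34 genes were to be named. In each role the pair with the smallest unadjusted p and the gene with the highest mean TPM were to be described by library, as were the 3 genes with the smallest p of each pathway list and the 2 genes of each marker list with the highest mean CPM by name. Srgap3, Ncam1 transcripts, Cd24a beside ependymal markers and the transcripts in the closing observations were singled out after their values were seen. One gene of the oligodendrocyte list is not reported here, and that list is given over its other 9 genes. Proteins were not analysed here.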

Additional observations from a re-analysis of the deposited data

How the results depend on the processing

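With all 6 libraries kept, the median log2 fold change of the neuroblast genes was 0.58 to 0.67 over the main analysis and the other scalings, filters, tests and count types, and the median of all tested genes was -0.01 to 0.04 over all settings. DESeq2 called 1 gene, Frmpd4, which is not a neuroblast gene, against 0 in edgeR. Leaving out 1 library at a time moved the neuroblast median between 0.03 (without antagomir replicate 1) and 1.22 (without vehicle replicate 1), the number of positive genes between 18 and 33, the median of the other neuroblast genes between 0.07 and 1.23, and that of the migration ligands and receptors between 0.0027 and 0.23. Neuroblast genes past the threshold stayed at 0 in all 14 alternatives, with smallest adjusted p-values of 0.0836 to 1. Log2 fold changes that changed sign without some library ranged from -0.0822 to 0.42 for Tubb2a, -0.15 to 1.22 for Tubb2b, -0.12 to 0.87 for Map1b, -0.27 to 0.71 for Kif5c, -0.38 to 1.61 for Ina, -0.37 to 1.54 for Dpysl3, -0.17 to 0.76 for Gap43, -0.0465 to 2.01 for Basp1, -0.0872 to 1.37 for Nrxn3, -0.077 to 0.70 for Robo1, -0.29 to 1.03 for Robo2, -0.13 to 0.10 for Cd24a, -0.48 to 1.13 for Elavl2, -0.0599 to 1.09 for Celf4, -0.17 to 0.59 for Rbfox3, -0.26 to 0.67 for Bcl11b and -0.20 to 0.36 for Uchl1. Rbfox3 was -0.0385 without both replicates numbered 1, and Cd24a, at 0.00, was -5e-04 with a minimum mean of 50 counts. The causes were not tested beyond the libraries left out.

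The replicate numbers were not taken to pair the libraries. Deviations from the group means correlated at 0.195, 0.0749 and 0.0275 for numbers 1, 2 and 3. The value for number 1 was the highest of any vehicle and antagomir pair, but vehicle replicate 3 correlated best with antagomir replicate 2 (0.14). With a replicate block the neuroblast median was 0.60, 33 of 33 genes were positive, 19 lay at an unadjusted p under 0.05 instead of 1 (1284 instead of 616 of all 15012 tested genes, 8.55% under the block), and 0 passed after adjustment (smallest adjusted p 0.21 in edgeR's test), as for all tested genes, of which 0 passed. The block moved the medians of the other neuroblast genes to 0.68 and of the migration genes to 0.07. Counting error is small for all but Dscam, Igfbpl1 and Neurod1, which have libraries with few or no counts, and 3 libraries a group limit what could be called.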

Other observations

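Of the neuroblast genes, Uchl1, Gad2 and Elavl4 had over 50% of their estimated TPM on transcripts annotated as not coding, and Gad1 and Nrxn3 had large shares (singled out after their values were seen). Uchl1-202, annotated as a retained intron of 980 bases, made up 76.4% of the TPM of Uchl1 and measured 153, 99.7 and 106 TPM with vehicle and 184, 121 and 103 TPM with antagomir, while the coding transcript Uchl1-201 made up 18.9% and measured 41.2, 27.9 and 21.5 TPM with vehicle and 51.2, 19.8 and 27.9 TPM with antagomir. Gad2-202, a transcript of 721 bases with no coding frame, made up 55.8% of the TPM of Gad2, and Gad2-201, the coding transcript of 585 codons, made up 44.2% and measured 14.5, 3.44 and 3.16 TPM with vehicle and 26.9, 10.2 and 6.81 TPM with antagomir. For Elavl4 the non-coding transcripts Elavl4-211 and Elavl4-210 made up 39.7% and 19.8%. For Gad1 the non-coding Gad1-206 (34.5%) and the full coding Gad1-201 (36.4%) were the largest. Gad1-206 measured 17.4, 8.19 and 3.79 TPM with vehicle and 21.5, 16.5 and 6.96 TPM with antagomir, and Gad1-201 measured 17.1, 4.07 and 5.58 TPM with vehicle and 31.4, 11.8 and 8.48 TPM with antagomir. Each transcript named here for Uchl1, Gad2, Elavl4 and Gad1 was highest in antagomir replicate 1, and short transcripts weigh more in TPM than in counts.

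Nrxn3 was spread over 13 annotated transcripts. Its largest share, 24.7%, was a transcript annotated as a retained intron, which measured 18.1, 0.917 and 0.0975 TPM with vehicle and 19.2, 11.7 and 5.45 TPM with antagomir, and the coding transcript with the 8mer match, Nrxn3-205, made up 11.9% and measured 7.30, 2.00 and 0.911 TPM with vehicle and 10.04, 4.29 and 2.12 TPM with antagomir. The 5 genes with a seed match in their most abundant coding transcript had log2 fold changes of 0.33 to 0.75 with a median of 0.48, and the 28 tested genes without one had 0.00 to 1.52 with a median of 0.64.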
